A study of Mus musculus with 11 samples.

Results

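Transcripts that mark inflammatory monocytes or the activation state of macrophages were followed in infarcted mouse hearts. The set was chosen by name and holds 9 of the 55513 genes in the count table. Ly6c2, Plac8, Chil3, Vcan and Slfn4 are abundant in monocytes newly arrived from the blood, and Arg1, Retnla, Nos2 and Il10 are textbook readouts of macrophage activation.

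RNA came from the hearts of 11 female C57BL/6J mice, 8 weeks of age. In 8 of them the left anterior descending coronary artery was permanently ligated to cause a myocardial infarction (MI), and tissue of the infarct and its border zone was taken 3 days later. Of these, 4 mice (A116, A117, A119 and A120) received GI254023X, an inhibitor of the metalloprotease ADAM10 (A10i), at 100 mg/kg, and 4 (A105, A127, A128 and A129) received the solvent DMSO. The other 3 mice (S1, S2 and S3) were sham-operated, also received DMSO, and gave healthy heart tissue. Infarction and the region sampled therefore cannot be told apart in any comparison with sham hearts. The labels give no time after surgery for the sham hearts. No mouse carried a genetic modification according to the labels, and the compound was given to the whole animal by an implanted pump, so no cell type was targeted. The libraries held 21702659 to 29511782 counted fragments.

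After an infarction, monocytes with high surface Ly6C enter the injured wall, clear dead tissue and give rise to macrophages. Macrophages exposed to interferon-gamma and microbial products classically raise Nos2, whereas interleukin-4 and interleukin-13 acting through Stat6 raise Arg1, Retnla and Chil3 in mice. The products of Arg1 and Nos2 compete for the same substrate, arginine. Several of these genes are also used by other leukocytes, Chil3 and Arg1 by neutrophils among them, and Vcan is made by activated fibroblasts. In bulk tissue, fewer cells of a type and less RNA per cell cannot be told apart.

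The sequences just upstream of the start sites of 3 of the genes are shown because Chil3 and Slfn4 had the largest differences between the infarcted groups among the monocyte genes, whereas Ly6c2 had almost none. RefSeq promoters (GRCm38.p6, the assembly also called mm10) were at hand for 6 of the 9 genes, and not for Arg1, Nos2 and Il10. Each line gives the 250 bases that precede the start site, 5′ to 3′ in the direction of transcription, with motif matches in capitals. The Chil3 window lies at chr3:106167565-106167814 on the minus strand, the Slfn4 window at chr11:83174936-83175185 on the plus strand and the Ly6c2 window at chr15:75111972-75112221 on the minus strand.
Chil3: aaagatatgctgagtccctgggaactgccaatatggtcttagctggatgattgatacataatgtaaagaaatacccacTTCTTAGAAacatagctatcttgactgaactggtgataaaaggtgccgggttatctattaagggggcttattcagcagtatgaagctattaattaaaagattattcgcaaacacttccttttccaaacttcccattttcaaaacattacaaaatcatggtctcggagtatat
Slfn4: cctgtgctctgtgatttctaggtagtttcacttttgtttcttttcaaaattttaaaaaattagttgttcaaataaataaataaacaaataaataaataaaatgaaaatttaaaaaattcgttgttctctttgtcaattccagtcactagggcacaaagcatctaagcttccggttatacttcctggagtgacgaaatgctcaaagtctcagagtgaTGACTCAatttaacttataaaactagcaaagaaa
Ly6c2: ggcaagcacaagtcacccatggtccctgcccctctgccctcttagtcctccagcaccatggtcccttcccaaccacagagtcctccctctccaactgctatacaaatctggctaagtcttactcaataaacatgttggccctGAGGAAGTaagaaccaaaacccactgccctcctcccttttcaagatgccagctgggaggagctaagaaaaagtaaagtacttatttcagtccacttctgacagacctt
The motifs searched on both strands were TTCNNNGAA (STAT type), TGANTCA (AP-1 type), GAAANNGAAA (interferon response type), GAGGAAGT (PU.1 type) and TTGCNNAA (C/EBP type). The Chil3 window held 1 STAT-type match, which 7.02% of 32851 promoter windows of the same length also held. The Slfn4 window held 1 AP-1-type match (6.75% of all windows), and the Ly6c2 window 1 PU.1-type match (2.44% of all windows). RefSeq lists another start site for Ly6c2, whose window at chr15:75111938-75112187 held 2 PU.1-type matches, 1 of them that shown. No matches overlapped each other in these 3 windows. Bases G and C made up 36.4% of the Chil3 window, 29.6% of the Slfn4 window and 50% of the Ly6c2 window, against a median of 52.4% over all windows.

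The first comparison asked how these genes differed between infarcted and sham hearts. Plac8, Chil3, Vcan, Slfn4 and Arg1 rose and Retnla fell after MI, with or without the inhibitor, whereas Ly6c2 and Nos2 did not pass the test. Arg1 and Chil3, with at most 2 counts in any sham library, reached 652 to 4273 counts in the DMSO libraries, and Retnla fell from 58 to 71 counts to at most 11. All fold changes are from edgeR's quasi-likelihood test over all genes, and a gene was called where its p, adjusted after Benjamini and Hochberg, was under 0.01. Levels are counts per 1000000 fragments of the library (CPM) after TMM scaling, and the 2 comparisons with sham share the sham hearts.

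Ly6c2 (ENSMUSG00000022584, chromosome 15) encodes the Ly6C antigen by which inflammatory monocytes are sorted. Its level was 2.55, 2.73 and 2.26 CPM in sham mice S1, S2 and S3. In the DMSO hearts A105, A127, A128 and A129 it was 4.97, 2.78, 3.19 and 2.32 CPM, and in the A10i hearts A116, A117, A119 and A120 it was 2.73, 3.09, 4.75 and 2.65 CPM. The 3 groups overlapped, with A105 and A119 standing highest. The log2 fold change over sham was 0.39 (SE 0.26, adjusted p = 0.259) with DMSO and 0.40 (SE 0.23, adjusted p = 0.191) with A10i. Of 2737 different windows of 100 bases in the Ly6c2 transcripts, 5.81% also occur in its neighbour Ly6c1, and fragments that lie wholly within such windows were counted for neither gene. Ly6c1, which endothelial cells also express, was far higher per kilobase of exon (RPKM), at 96.3 ± 3.13 RPKM in sham hearts against 0.917 ± 0.0871 RPKM for Ly6c2 (mean ± SD, n = 3).

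Plac8 (ENSMUSG00000029322, chromosome 5) encodes a small cysteine-rich protein abundant in Ly6C-high monocytes. It had 8, 1 and 2 counts in the sham libraries. The DMSO hearts A105, A127, A128 and A129 had 10.7, 5.56, 3.66 and 7.22 CPM, and the A10i hearts A116, A117, A119 and A120 had 11.02, 6.34, 6.19 and 4.001 CPM. Every infarcted heart lay above every sham heart, and the infarcted groups overlapped. Plac8 rose 44.1-fold with DMSO (log2 fold change 5.46, SE 0.61, adjusted p = 0.000365) and 45.2-fold with A10i (5.50, SE 0.58, adjusted p = 0.000348). Without sham mouse S1, which held 8 of the sham counts, the log2 fold changes were 6.74 and 6.77, so the size of the rise rests on that library.

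Chil3 (ENSMUSG00000040809, chromosome 3) encodes a secreted chitinase-like protein, Ym1, made by activated macrophages and by other myeloid cells. Sham libraries held 1 count among all 3. The DMSO hearts A105, A127, A128 and A129 had 36.6, 21.8, 48.0 and 98.3 CPM, and the A10i hearts A116, A117, A119 and A120 had 19.6, 17.5, 4.25 and 8.68 CPM. All 3 groups were separate, with sham lowest and DMSO highest. Chil3 rose over sham in both groups (adjusted p = 0.000277 with DMSO and 0.000618 with A10i). The ratio of summed counts to sham, scaled to library size, was 3743 with DMSO (95% interval from counting error alone, 672 to 147865) and 950 with A10i (170 to 37569). Of its 1581 windows of 100 bases, 4.93% also occur in other genes, mostly its near copy Chil4, which had 0 counts in every sham library and at most 9 in any infarcted one.

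Vcan (ENSMUSG00000021614, chromosome 13) encodes versican, a large matrix proteoglycan of monocytes and fibroblasts. Its level was 25.2, 20.8 and 19.7 CPM in the sham hearts. It reached 82.4, 70.9, 81.9 and 125 CPM in the DMSO hearts and 104.7, 71.1, 62.3 and 70.4 CPM in the A10i hearts. Every infarcted heart was above the sham range, and A129 and A116 were the highest of their groups. Vcan rose 4.11-fold with DMSO (log2 fold change 2.04, SE 0.20, adjusted p = 0.000225) and 3.53-fold with A10i (1.82, SE 0.19, adjusted p = 0.000319). The 5 fibroblast markers summed to 794 to 839 CPM in sham, 1190 to 3838 CPM in DMSO and 2955 to 5759 CPM in A10i hearts, and their part in the Vcan values was not tested.

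Slfn4 (ENSMUSG00000000204, chromosome 11) belongs to the schlafen family and is induced in myeloid cells by interferon and microbial products. It had 2, 8 and 5 counts in the sham libraries. The DMSO hearts A105, A127, A128 and A129 had 46.6, 11.3, 19.9 and 22.3 CPM, and the A10i hearts A116, A117, A119 and A120 had 12.8, 7.15, 6.52 and 3.24 CPM. Both infarcted groups lay clear of sham, and only A116 reached into the DMSO range. Slfn4 rose 121-fold with DMSO (log2 fold change 6.92, SE 0.69, adjusted p = 0.000251) and 36.4-fold with A10i (5.19, SE 0.62, adjusted p = 0.000584).

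Among the activation genes, Arg1 (ENSMUSG00000019987, chromosome 10) encodes arginase, which splits arginine into ornithine and urea. Sham libraries held 0, 1 and 2 counts. The DMSO hearts A105, A127, A128 and A129 had 86.3, 38.9, 37.9 and 168 CPM, and the A10i hearts A116, A117, A119 and A120 had 54.3, 22.9, 5.90 and 12.9 CPM. The sham hearts were lowest throughout, and A116 was the one A10i heart within the DMSO range. Arg1 rose over sham with DMSO (adjusted p = 0.000380) and with A10i (adjusted p = 0.00317). The scaled ratio of summed counts was 1966 with DMSO (95% interval from counting error alone, 673 to 9536) and 610 with A10i (208 to 2958). The A10i call was lost without any 1 of the sham libraries, with an adjusted p of up to 0.0121, by limma-voom, with an adjusted p of 0.0365, and without the filter on low counts, with an adjusted p of 0.0176.

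Nos2 (ENSMUSG00000020826, chromosome 11) encodes the inducible nitric oxide synthase. Its level was 11.8, 13.1 and 10.4 CPM in sham hearts, 8.601, 10.02, 8.64 and 16.6 CPM in DMSO hearts and 12.2, 8.59, 12.7 and 7.60 CPM in A10i hearts. The 3 groups overlapped, and A129 was the highest heart. Neither infarcted group passed the test against sham, with log2 fold changes of -0.10 (SE 0.23, adjusted p = 0.743) for DMSO and -0.19 (SE 0.18, adjusted p = 0.435) for A10i. With scaling by library size alone the value for DMSO was 0.12, since that scaling moved the median of all genes by 0.21 with DMSO and 0.18 with A10i.

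Set beside each other per kilobase of exon, Arg1 was below Nos2 in all sham hearts, with Arg1 to Nos2 RPKM ratios of 0, 0.00569 and 0.0154. The ratio was between 7.74 and 20.1 in the DMSO hearts and 8.86, 5.31, 0.928 and 3.37 in the A10i hearts. Arg1 thus exceeded Nos2 in every DMSO heart and in all A10i hearts but A119.

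Retnla (ENSMUSG00000061100, chromosome 16) encodes the secreted protein RELM-alpha, also called FIZZ1. It was at 3.07, 2.17 and 2.50 CPM in the sham hearts. The DMSO libraries held 8, 10, 11 and 4 counts and the A10i libraries 8, 7, 9 and 11 counts. Every infarcted heart lay below every sham heart. Retnla fell 8.46-fold with DMSO (log2 fold change -3.08, SE 0.29, adjusted p = 0.000140) and 7.05-fold with A10i (-2.82, SE 0.26, adjusted p = 0.000138). It thereby moved against Arg1 and Chil3, the other genes of the interleukin-4 response in the set.

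Il10 (ENSMUSG00000016529, chromosome 1) encodes interleukin-10, a cytokine that restrains inflammation. It had 0, 0 and 2 counts in the sham libraries, 1, 5, 1 and 3 in the DMSO libraries and 5, 1, 1 and 3 in the A10i libraries. It did not pass the filter on low counts in any comparison, and differences at this level were not detectable at this depth.

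In each comparison with sham, 8 of the 9 genes passed the filter, of which 5 were called higher and 1 lower. Over all genes tested with DMSO, 12.9% were called higher and 9.6% lower, and with A10i 13.8% were called higher and 9.09% lower. Plac8, Chil3, Slfn4 and Arg1 passed the filter through the infarcted hearts and Retnla through the sham hearts, so for these 5 the counts are a description. Ly6c2, Vcan and Nos2 had at least 10 counts in every library, and of these Vcan alone was called. Groups did not overlap for 5 genes higher and 1 lower in both comparisons. This held for 25.1% of all genes in the higher and 23.6% in the lower direction with DMSO, and for 24.7% and 23.5% with A10i.

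**Figure D1:**
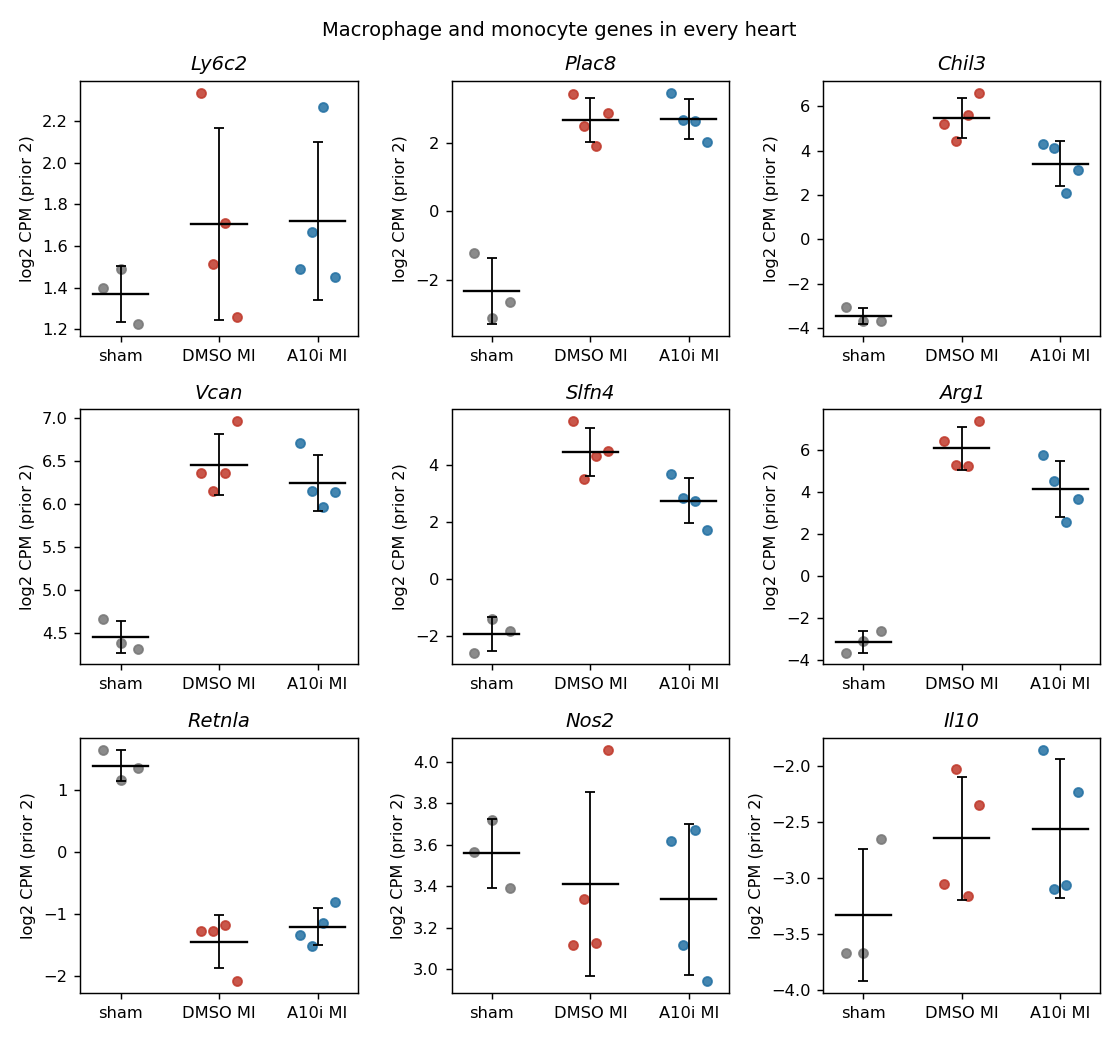
Level of each of the 9 genes in every heart, as log2 CPM with a prior count of 2, for 3 sham, 4 DMSO MI and 4 A10i MI mice, with the mean (line) and SD (error bar). Plac8, Chil3, Vcan, Slfn4 and Arg1 are above and Retnla is below sham in all 8 infarcted hearts, while the groups overlap for Ly6c2, Nos2 and Il10.

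The order of levels, compared per kilobase of exon, was different after MI. In sham hearts Retnla was highest at 4.31 ± 0.765 RPKM, followed by Nos2 at 2.65 ± 0.303, Vcan at 1.51 ± 0.198 and Ly6c2 at 0.917 ± 0.0871 RPKM (mean ± SD, n = 3). The ranges of these 4 did not overlap, and the other 5 genes were at or below 0.0972 RPKM on average. In DMSO hearts Arg1 led at 37.1 ± 27.4 RPKM, with Chil3 at 31.4 ± 20.3 RPKM (n = 4) overlapping it. Slfn4, Vcan, Plac8 and Nos2 followed, with means of 6.31 to 2.47 RPKM and overlap between neighbours. In A10i hearts Arg1 stood at 10.8 ± 9.59 and Chil3 at 7.66 ± 4.44 RPKM, and the genes from Arg1 down to Ly6c2 overlapped neighbour by neighbour. Retnla, at 0.499 ± 0.160 RPKM with DMSO and 0.607 ± 0.161 RPKM with A10i, lay below Ly6c2 and above Il10 in both infarcted groups without overlap.

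Hearts of the same group also differed among themselves in Arg1 by more than counting error. It had a coefficient of variation of 73.7% with DMSO and 89.1% with A10i, where counting error alone gives 2.15% and 4.09%. The highest A10i heart had 9.19 times the Arg1 level of the lowest. The same held for other genes. For Chil3 the coefficients were 64.8% and 58.0%, where counting error alone gives 2.70% and 5.68%. For Slfn4 they were 60.6% and 53.5% (counting error 3.92% and 7.36%). For Plac8 they were 44.1% and 42.9% (7.48% and 7.66%). For Ly6c2 they were 35.1% and 29.6% (10.6% and 11.1%), and for Nos2 34.8% and 24.8% (5.81% and 6.31%). For Vcan the coefficients were 26.5% and 24.4% (2.03% and 2.30%). For Retnla they were 32.0% and 26.6%, within the 34.8% and 33.8% that counting error alone gives.

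The second comparison asked whether the inhibitor altered these genes in infarcted hearts. Chil3, Arg1 and Slfn4 had lower mean levels with A10i than with DMSO by factors of 3.34 to 4.08, but none passed the threshold. Ly6c2 and Plac8, also monocyte genes, differed little between the group means, as did Nos2 and Vcan. None of the 7 genes past the filter was called, and the share called among all 16793 genes was 0% higher and 0% lower at the threshold, with 2323 genes at an unadjusted p under 0.05 and 227 called by DESeq2.

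For Chil3, all 4 A10i hearts lay below all 4 DMSO hearts, the nearest being A116 at 19.6 and A127 at 21.8 CPM. The log2 fold change was -2.03 (SE 0.53, unadjusted p = 0.00381, adjusted p = 0.156 by edgeR, 0.0421 by DESeq2). For Slfn4, the log2 fold change was -1.74 (SE 0.47, unadjusted p = 0.00447, adjusted p = 0.161 by edgeR, 0.0576 by DESeq2). Only A116 and A127 crossed, at 12.8 and 11.3 CPM.

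For Arg1 the log2 fold change was -1.78 (SE 0.68, unadjusted p = 0.0256, adjusted p = 0.284 by edgeR, 0.254 by DESeq2). Of the A10i hearts, A116 at 54.3 CPM exceeded the DMSO hearts A127 and A128. Without A116 the log2 fold change was -2.56, and without the DMSO heart A129 it was -1.18, so the Arg1 estimate moved by over 1.5 times on single hearts, without passing the threshold either way.

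These 3 genes were below an unadjusted p of 0.05 in the lower direction, out of 7 past the filter, where 6.73% of all genes were. The groups did not overlap in log2 CPM for 1 of the 9 genes, Chil3, against 4.12% of all genes in the lower direction. Without A116 there were 3 such genes, and without A127 there were 2.

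The log2 fold changes of the others were -0.22 (SE 0.20) for Vcan, -0.09 (SE 0.25) for Nos2, 0.00 (SE 0.27) for Ly6c2 and 0.03 (SE 0.36) for Plac8. None passed the threshold, which does not show that the groups were equal, and the SE of Plac8 was the widest of the 4. Retnla and Il10 did not pass the filter, and an exact permutation test over hearts, two-sided, gave p = 0.457 for Retnla and p = 0.743 for Il10, where 0.0286 is the smallest value that 4 against 4 hearts allow.

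**Figure D2:**
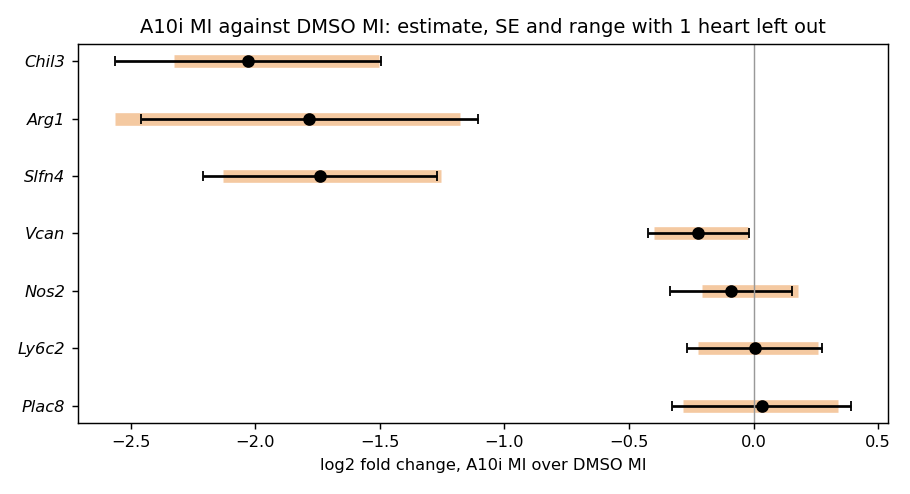
Log2 fold change of A10i MI over DMSO MI hearts (x axis) for the 7 genes that passed the filter (y axis), with the estimate (point), its SE (bar) and the range when each heart was left out in turn (shaded). Chil3, Arg1 and Slfn4 stay at or below -1.18 in every case and the other 4 genes lie near 0.

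Markers of other leukocytes were compared between the same groups, and none of those past the filter was called by edgeR. Of 8 neutrophil markers 7 passed the filter, and all 7 were lower with A10i at an unadjusted p under 0.05, with a median log2 fold change of -1.64. Of all genes, 6.73% were lower at that level. Their summed level was 95.7, 68.8, 111 and 128.4 CPM in A105, A127, A128 and A129, against 48.4, 27.7, 13.9 and 28.5 CPM in A116, A117, A119 and A120, and 1.05 to 2.12 CPM in sham hearts. Ly6g, the defining surface antigen of neutrophils, had under 10 counts in every library. The 9 macrophage markers summed to 310 to 505 CPM with DMSO, 410 to 682 CPM with A10i and 210 to 228 CPM in sham hearts. Between the infarcted groups 4 of them were higher and 1 lower at an unadjusted p under 0.05, as were 2323 of all 16793 genes in either direction. Of 5 eosinophil markers none passed the filter, and Epx, Prg2, Ccr3 and Il5ra had under 10 counts in every library.

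A116 and A119 were the extremes of the A10i group for neutrophil markers, as they were for Chil3 and Arg1. They were also its extremes for the 5 cardiomyocyte markers, in the opposite order. These summed to 34663, 39093, 47237 and 42557 CPM in A116, A117, A119 and A120. In A105, A127, A128 and A129 they summed to 42778.5, 36451, 33177 and 29087 CPM. The part of the muscle content of the tissue in the levels of Chil3 and Arg1 was not tested. The level of each gene was also taken relative to the mean log2 CPM of the neutrophil markers in the same heart. On that scale the difference between A10i and DMSO was -0.46 for Chil3 (exact permutation p = 0.286), -0.36 for Arg1 (p = 0.543) and -0.12 for Slfn4 (p = 0.886), with overlap between the groups for each. Because the neutrophil markers were themselves lower with A10i, the scale raises the difference of every gene by the same amount. The smaller differences of Chil3, Arg1 and Slfn4 follow from that shift, and nothing particular to them is read from these p values. The remaining 6 genes lay higher with A10i by 1.37 to 1.84 without overlap, as did 89.9% of all genes on this scale, whose reference markers were themselves lower with A10i, so nothing particular to the 6 genes is read from it. This scale was added after the data had been seen, and the part of neutrophils in the levels of Chil3, Arg1 and Slfn4 was not tested.

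**Figure D3:**
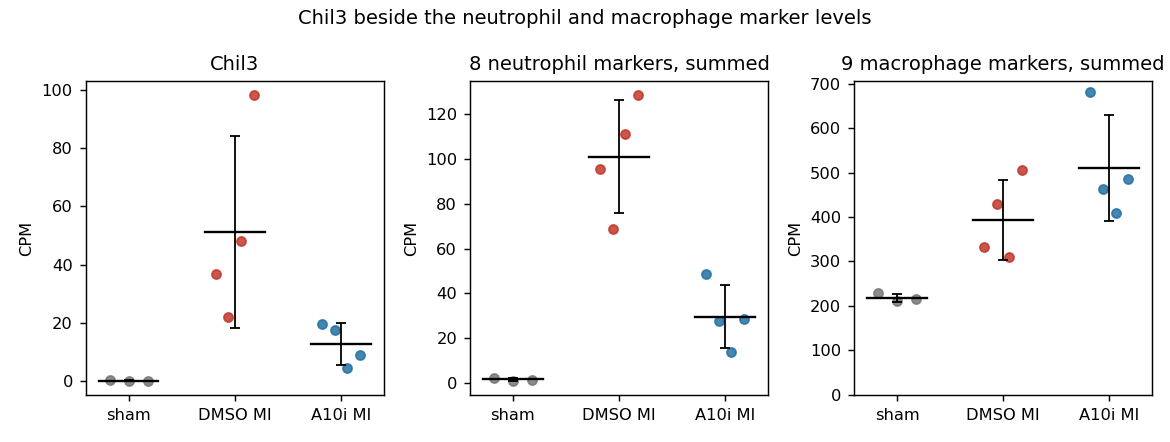
CPM of Chil3 (left) and summed CPM of 8 neutrophil markers (middle) and 9 macrophage markers (right) in each sham, DMSO MI and A10i MI heart, with the mean (line) and SD (error bar). Chil3 and the neutrophil sum are both lower in all A10i than in all DMSO hearts, whereas the macrophage sum is not.

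The third question was how each gene stood relative to general macrophage transcripts of the same heart, measured as its log2 CPM minus the mean log2 CPM of the macrophage markers. On this scale Chil3 was 0.18, -0.81, 0.80 and 0.99 in A105, A127, A128 and A129, and -1.62, -1.16, -2.93 and -2.17 in A116, A117, A119 and A120. Arg1 was 1.42, 0.02, 0.45 and 1.76 in the DMSO hearts and -0.16, -0.78, -2.47 and -1.60 in the A10i hearts. Slfn4 was 0.53, -1.76, -0.47 and -1.14 with DMSO and -2.23, -2.44, -2.32 and -3.57 with A10i.

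For all 3 genes every A10i heart was below every DMSO heart. The differences in means were -2.26 for Chil3, -2.16 for Arg1 and -1.93 for Slfn4 (exact permutation test, two-sided, p = 0.0286 each, the smallest value possible). The groups overlapped for the other 6 genes, among which Vcan, at -0.43, had an exact permutation p of 0.0571. Of all genes, 4.19% were lower without overlap on this scale. Leaving out A119 raised the number of genes without overlap from 3 to 5. The scale rests on markers that were themselves higher with A10i in part, so the relative and absolute levels are both given.

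Against sham hearts, Plac8, Chil3, Arg1, Vcan and Slfn4 were higher relative to macrophage markers without overlap, both with DMSO and with A10i, where 3.04% and 2.21% of all genes were. Nos2 and Retnla were lower without overlap in both, and Ly6c2 with A10i, where 81.3% of all genes with DMSO and 87.3% with A10i were. Plac8, Chil3, Slfn4 and Arg1 passed the filter through the infarcted hearts and Retnla through the sham hearts. For these genes the lack of overlap is a description, and the shares of all genes are no test of it. Nos2 fell behind the macrophage markers by 1.32 on the log2 scale with DMSO and 1.61 with A10i, as most genes of the heart did in that direction. Vcan stood above the macrophage markers by 0.45 in sham, 1.28 in DMSO and 0.85 in A10i hearts. Its gain over sham on this scale was thus 0.83 with DMSO and 0.40 with A10i.

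**Figure D4:**
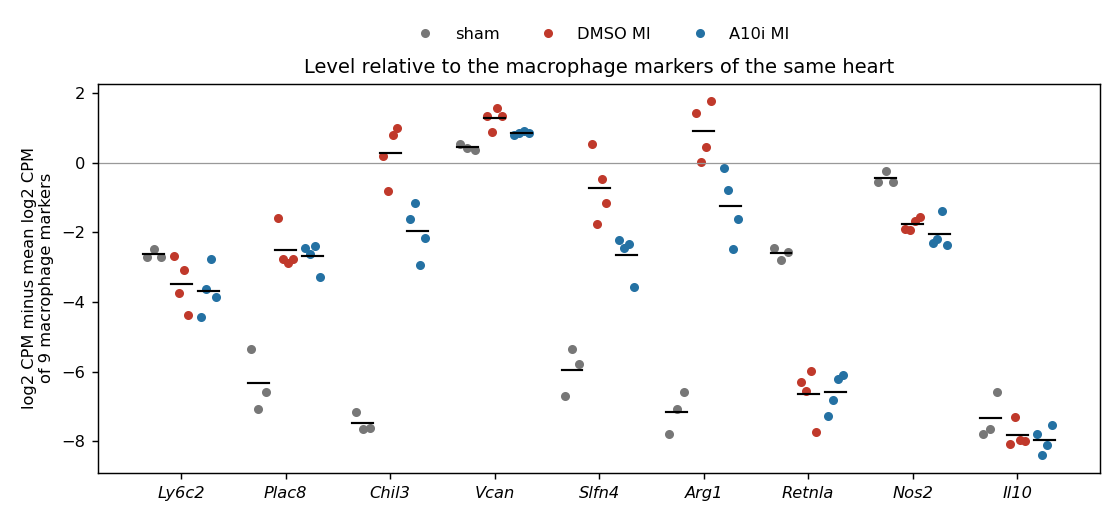
Log2 CPM of each gene minus the mean log2 CPM of 9 macrophage markers in the same heart (y axis), for sham, DMSO MI and A10i MI hearts, with the mean (line). Chil3, Slfn4 and Arg1 are lower in all A10i than in all DMSO hearts, and Nos2 lies lower in all infarcted than in all sham hearts.

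Among the 8 infarcted hearts, 17 of 21 pairs of the 7 genes past the filter had a Pearson's r above 0. Of the 21 pairs, 1 passed an adjusted exact permutation p of 0.05, Chil3 with Arg1, with Pearson's r = 0.93 (p = 0.00139, adjusted p = 0.0292) and Spearman's rho = 0.83 (p = 0.0154, adjusted p = 0.0646). Without the 2 hearts farthest from the median of Chil3, r was 0.75, and with the group means removed it was 0.87. Arg1 with Vcan followed with r = 0.85 (permutation p = 0.00697, adjusted p = 0.0732) and rho = 0.90 (p = 0.00456, adjusted p = 0.0507), with r = 0.61 without the 2 hearts farthest from the median of Arg1 and 0.89 within groups.

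Chil3 with Vcan had r = 0.77 over the 8 hearts (exact permutation, adjusted p = 0.121) and 0.85 within groups. Without the 2 hearts farthest from the median of Chil3, that r was 0.32. Slfn4 correlated with Chil3 at r = 0.76 over the 8 hearts and at 0.41 within groups. With Plac8 it correlated at r = 0.50 over the 8 hearts and 0.83 within groups. For these Slfn4 pairs the adjusted exact permutation p values of r over the 8 hearts were 0.121 and 0.470. Without the 2 hearts farthest from the median of Chil3, r of Slfn4 with Chil3 was 0.89. Without the 2 farthest from the median of Plac8, r of Slfn4 with Plac8 was 0.19. Ly6c2 had negative coefficients with Chil3, Arg1, Vcan and Nos2, between -0.50 and -0.22, none past the threshold. Leaving out single hearts gave 0 to 3 pairs past the threshold.

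**Figure D5:**
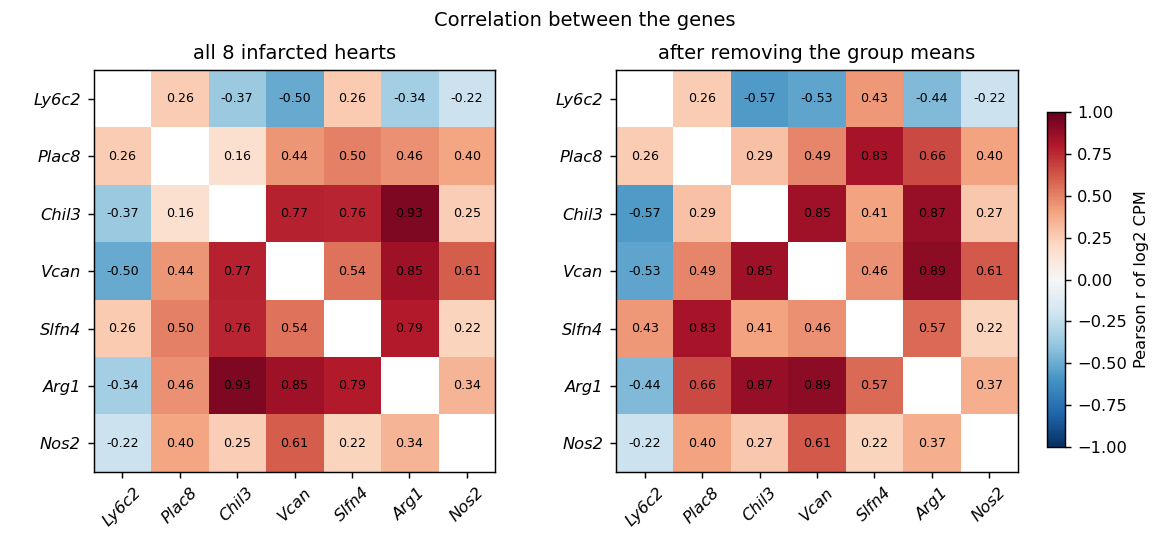
Pearson's r of log2 CPM for each pair of the 7 genes over the 8 infarcted hearts (left) and after the mean of each group was removed (right), with color from -1 (blue) to 1 (red). Chil3, Vcan and Arg1 correlate above 0.75 in both panels, while Ly6c2 is negative with these 3 genes. Without the 2 hearts farthest from the median of Chil3, r of Chil3 with Vcan was 0.32 (not shown).

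Genes with the most similar pattern over the 8 infarcted hearts were sought among 16781 genes by Pearson's r of log2 CPM, as a description over hearts that share group and tissue makeup. For Chil3 they were Inhbb (r = 0.99), Cxcr2 (0.98) and Trem1 (0.98), of which Cxcr2 is a chemokine receptor of neutrophils and Trem1 a receptor of neutrophils and monocytes. For Arg1 they were Cd300lf (0.99), F630028O10Rik (0.99) and Exosc1 (0.99). For Slfn4 they were Azin1 (0.99), Gnl3 (0.99) and Adam19 (0.98). Azin1 encodes an inhibitor of the antizyme that restrains polyamine synthesis.

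Plac8 was most alike to Ms4a4c (0.97), a gene of Ly6C-high monocytes, Gpr171 (0.95) and Alg2 (0.94). Vcan was most alike to Sirpb1b, Clip2 and Ap2m1 (0.98 each). Ly6c2 was nearest to Trub1 (0.97), Rubcn (0.97) and Filip1 (0.96), and Nos2 to Mtf2 (0.97), Fndc4 (0.97) and Rab23 (0.95).

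Other genes of the same programs were described from lists of known members. Of 12 other inflammatory monocyte genes, 12 rose with DMSO and 11 with A10i over sham, with median log2 fold changes of 2.68 and 2.15 beside medians of 0.00 and -0.01 over all genes. The shares of all genes called higher were 12.9% with DMSO and 13.8% with A10i, against which the counts of the lists that follow are also to be read, and 9.6% and 9.09% were called lower. Ccr2, the chemokine receptor that monocytes need to leave the marrow, rose by 2.93 on the log2 scale with DMSO (SE 0.43) and 3.29 with A10i (SE 0.45). Hp, encoding haptoglobin, rose by 4.59 and 5.08.

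Between A10i and DMSO, none of the 12 was called by edgeR. Among the smallest unadjusted p values were those of Cd44 (log2 fold change -0.54, unadjusted p = 0.0340) and Itgam (-0.69, unadjusted p = 0.0503), which neutrophils express as well. Ccr2 stood at 0.36 (SE 0.43). The median of the list was 0.18.

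Of 14 other genes of alternative activation, 10 passed the filter against sham, of which 5 rose with DMSO and 6 with A10i. None was called lower by edgeR, though 2 with DMSO and 1 with A10i were lower at an unadjusted p under 0.05. Cd163 stood at -0.62 on the log2 scale with DMSO (adjusted p = 0.0110 by edgeR, 0.00131 by DESeq2) and at 0.16 with A10i. Mrc1, the mannose receptor, rose by 0.92 with DMSO and 1.34 with A10i on the log2 scale, and Clec10a, a galactose-type lectin, by 0.89 and 1.33. Egr2, a transcription factor induced by interleukin-4, rose by 3.86 and 3.10. Tgm2, encoding a transglutaminase, rose by 0.80 and 0.51. Il1rn, the interleukin-1 receptor antagonist, rose from at most 3 counts per sham library to 197 to 228 per DMSO library and 41 to 162 per A10i library.

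Between A10i and DMSO these genes did not share a direction. Ccl24, an eosinophil-attracting chemokine of macrophages, had a log2 fold change of -2.20 (unadjusted p = 0.00575), Il1rn one of -1.36 (unadjusted p = 0.00616) and Cd163, a scavenger receptor of resident macrophages, one of 0.78 (unadjusted p = 0.00617). None was called (adjusted p = 0.174 to 0.179 by edgeR).

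Of 14 other genes of classical activation, 11 passed the filter and 8 rose over sham in each infarcted group, with none called lower by edgeR. Cxcl9 nevertheless stood at -0.92 on the log2 scale with DMSO (adjusted p = 0.0252 by edgeR, 0.00794 by DESeq2) and at -0.59 with A10i (adjusted p = 0.261 by edgeR). Il1b and Tnf, both inflammatory cytokines, rose with DMSO by 5.41 and 2.94 on the log2 scale, and with A10i by 3.59 and 2.11. Fpr2, a formyl peptide receptor of neutrophils and macrophages, rose by 4.83 and 3.14, and Cxcl10, a chemokine induced by interferon, by 2.44 and 3.37. Between A10i and DMSO, Fpr2 (-1.69, unadjusted p = 0.00149), Il1b (-1.82, unadjusted p = 0.00259) and Il6 (-1.44, unadjusted p = 0.0105) had the smallest p values of the list. None was called by edgeR, whereas DESeq2 called Fpr2 and Il1b (adjusted p = 0.00252 each by DESeq2), as it did 0.677% of all genes in the lower direction. Nos2 thus did not pass the test in the hearts in which 8 of these 11 genes rose.

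Of 20 ligands, receptors and transducers of polarization, 16 passed the filter, and in each comparison with sham 6 rose and 2 fell, beside 12.9% higher and 9.6% lower of all genes with DMSO and 13.8% and 9.09% with A10i. The ligands Il4, Il13 and Ifng had at most 3 counts in any library. Il4ra, the receptor chain for interleukin-4 and interleukin-13, rose by 2.74 with DMSO (SE 0.16) and 2.14 with A10i (SE 0.28), and Il13ra1 by 0.69 and 0.47. Ifngr2, a chain of the interferon-gamma receptor, fell by 0.46 and 0.45, and Il10rb, a chain of the interleukin-10 receptor, fell by 0.50 and 0.47. Between A10i and DMSO the smallest p values were those of Il13ra1 (-0.22, unadjusted p = 0.0139), Ifngr1 (0.25, unadjusted p = 0.0214) and Il4ra (-0.61, unadjusted p = 0.0302), and none was called by edgeR.

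Of 13 genes of arginine metabolism, 12 passed the filter with DMSO and 11 with A10i over sham, of which 7 rose with DMSO and 3 with A10i. Over all genes 12.9% and 13.8% were called higher. Srm, encoding spermidine synthase, rose by 1.12 with DMSO on the log2 scale, and its value of 0.54 with A10i was not called (adjusted p = 0.0335). Asl, an enzyme that makes arginine, and Slc7a2, an arginine transporter, rose in both, Asl by 0.65 and 0.82 and Slc7a2 by 0.91 and 0.80. Nos3, the endothelial nitric oxide synthase, rose by 0.50 and 0.27. Between A10i and DMSO, Srm (-0.59, unadjusted p = 0.00639), Arg2 (-1.28, unadjusted p = 0.0180) and Nos3 (-0.23, unadjusted p = 0.0185) had the smallest p values, and none was called by edgeR. Arg2, the mitochondrial arginase, had 0 to 1 counts in sham, 18 to 26 in DMSO and 1 to 14 in A10i libraries.

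Of 22 family relatives of the 9 genes, 13 passed the filter with DMSO and 14 with A10i over sham, of which 7 rose and 1 fell with DMSO and 9 rose and 0 fell with A10i, beside the same shares of all genes, 12.9% and 9.6% with DMSO and 13.8% and 9.09% with A10i. Ly6c1 fell by 0.54 with DMSO, whereas Ly6c2 did not pass the test. Retnlg, the relative of Retnla in neutrophils, went from at most 2 counts per sham library to 86 to 283 with DMSO and 15 to 91 with A10i, against the fall of Retnla. Chil1 rose from 1 to 2 counts per sham library to at least 92 with DMSO and at least 61 with A10i, and its log2 fold change between A10i and DMSO was 0.16 (SE 0.32) beside -2.03 for Chil3. Slfn1 rose by 4.08 with DMSO and 2.94 with A10i, and between these groups it stood at -1.14 (unadjusted p = 0.00748, adjusted p = 0.190 by edgeR), Slfn2 at -0.26 and Slfn5 at 0.27.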

How the data were processed

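Counts of 11 heart libraries were used (3 sham, 4 DMSO, 4 A10i, each from its own mouse). The authors made poly(A), strand-specific libraries, aligned reads to mm10 with GSNAP and deposited raw counts of uniquely aligned reads per Ensembl gene from featureCounts 2.0.1 (submitters' processing notes), with no normalization. The strand setting was not stated, but no exon of the 9 genes overlapped an exon of another gene. Symbols matched 55154 of 55513 identifiers. RPKM used the deposited exon lengths.

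Each pair of groups was fitted alone in edgeR 4.0.16 (R 4.3.3) with filterByExpr, TMM scaling and its robust quasi-likelihood test (two-sided). P values were adjusted over all genes tested after Benjamini and Hochberg, at the study's threshold of 0.01. Its DESeq2 fit (version 1.42.0 here, without hypothesis weighting), limma-voom (3.58.1), other scalings and filters, a joint fit and omission of each library were alternatives. The fits were tested on simulated counts. Single values were compared by exact permutation over hearts, taking the share of splits with at least as large an absolute difference. Log2 CPM used a prior count of 2. Replicates differed beyond counting error (chi-square per degree of freedom 4.04 to 62.9 over 15 pairs). Interval limits cover counting error only.

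The 9 genes and the gene lists were chosen with earlier results of these data known. Named from the lists were genes called in any comparison or, between A10i and DMSO, the 3 with the smallest unadjusted p, and 1 such gene is not reported here. For each gene past the filter, the 3 most correlated genes were named. Scalings, priors and omissions for the exact tests and correlations, and the neutrophil scale, were added after the data were seen.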

Additional observations from a re-analysis of the deposited data

Results flagged for a closer look

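Of 18 gene and group combinations with 4 hearts, 1 held a value far from the others by Dixon's criterion, about what chance gives at 1 in 20. The DMSO heart A129 had the lowest Retnla level, with 4 counts against 8 to 11 in the other DMSO libraries, and the gap to its neighbour made up 0.887 of the group's range of log2 CPM.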

How the results depend on the processing

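The numbers of the 9 genes called were the same or within 1 gene under the other tools, scalings and joint fit, except that with at least 10 counts required in every library 3 genes were left and 1, Vcan, was called against sham in either comparison. At a threshold of 0.05 the genes called in all were 6832 (DMSO) and 6672 (A10i) against sham. With single libraries left out they were 1522 to 4051 (DMSO) and 1620 to 4365 (A10i), the low ends without a sham library. Between A10i and DMSO, 0 of the 9 genes was called under any alternative, and the genes called in all were 227 by DESeq2, 43 without a filter, 11 in one fit of all libraries, 12 at a threshold of 0.05, and 0 to 1 with a library left out. Signs turned for values near 0. Nos2 with DMSO over sham was 0.12 by library size alone. Ly6c2 between A10i and DMSO was -0.0032 by DESeq2, -0.0014 with RLE size factors and -0.0011 without a filter. With single hearts left out, the log2 fold change between A10i and DMSO lay between -0.22 and 0.26 for Ly6c2, -0.28 and 0.34 for Plac8 and -0.21 and 0.18 for Nos2. Leaving out hearts gave 1 to 3 genes without overlap in log2 CPM, 3 to 5 relative to macrophage markers and 0 to 3 correlated pairs. Relative to neutrophil markers, which were themselves lower with A10i, there were 6 without overlap, all higher with A10i, as were 89.9% of all genes. The cause of these shifts was not tested. Il10, with at most 5 counts, and Retnla between the infarcted groups are limited by depth. No paired analysis was possible because the groups share no mouse numbers.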
